A study of Rattus norvegicus with 6 samples.

Results

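Stromal cells grown out of rat bone marrow (BMSCs, a primary culture that contains precursors of bone-forming cells) were profiled by ATAC-seq, and the regions described here are the 5279 peaks of intermediate accessibility, 3.17% of the 166508 peaks in the table. They were chosen by signal alone: a mean of at least 12 CPM (the count scaled to the library's total in peaks, averaged over all 6 libraries) that was not among the 1666 peaks, 1% of the table, with the highest mean. The other 159563 peaks lie below 12 CPM. The hypoxia group (3 libraries) was kept at 1% oxygen for 7 days, and the control group (3 libraries) was under normal culture conditions, for which the labels give no oxygen level. All 6 libraries came from the same cell type, with about 50000 cells each and no genetic change named in the labels. Whether the replicates are separate animals or cultures is not stated, so the p-values below speak of these libraries and their spread, which may be technical.

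ATAC-seq uses a transposase that inserts sequencing adapters where DNA is not covered by nucleosomes, so a peak's count follows how often that stretch was open among the cells sampled. The most open sites of a cell are commonly promoters of broadly used genes, while weaker sites include many enhancers, whose opening differs between cell states. Low oxygen stabilises hypoxia-inducible factors, which bind DNA and recruit chromatin regulators, and the series places the transcription factor SP1, which binds GC-rich promoters, beside this response. The table gives each peak a number but no coordinate or gene, so no intermediate peak could be assigned to a promoter, an enhancer or a motif, no sequence is shown, and the labelled cell type could not be checked against marker genes.

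No intermediate peak differed between hypoxia and control at the threshold used, and the class as a whole held the same share of the counts in both groups within the spread between libraries. Intermediate peaks held 8.85%, 8.62% and 8.49% of all counts in hypoxia 1, 2 and 3, and 8.90%, 8.39% and 8.81% in control 1, 2 and 3. The groups overlapped fully, with control 2 the lowest library and control 1 the highest. The hypoxia mean was 8.65% ± 0.19 and the control mean 8.70% ± 0.27 (SD over 3 libraries; exact two-sided permutation test, p = 0.9, Benjamini-Hochberg adjusted 0.9 over 3 such comparisons). With 3 libraries against 3 the smallest p that the permutations can give is 0.1. The sign of the difference, -0.05 percentage points, turned positive without hypoxia 3, control 1 or control 3.

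**Figure D1:**
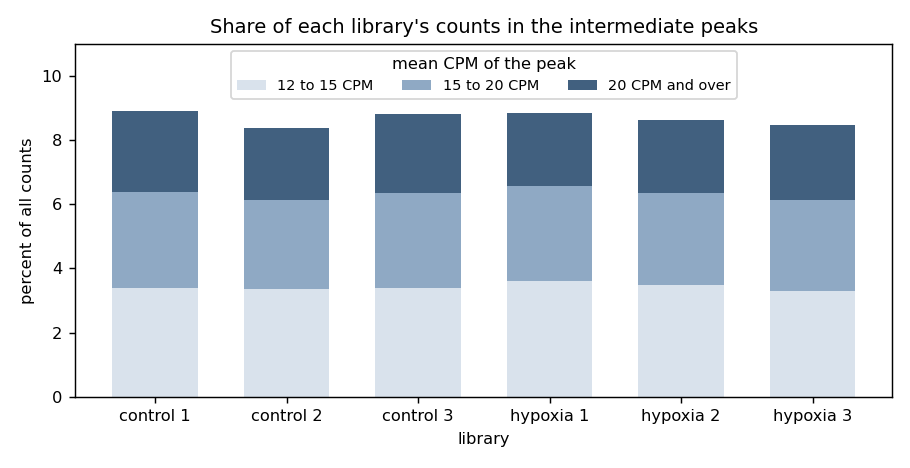
Percent of each library's counts that lies in the intermediate peaks (vertical axis) for the 6 libraries (horizontal axis), stacked by the mean CPM of the peak. Bars reach 8.39% to 8.90%, and both the lowest and the highest bar are control libraries.

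The counts in a typical intermediate peak followed the depth of the library. The median intermediate peak held 59, 50 and 46 counts in hypoxia 1, 2 and 3 and 31, 26 and 30 in control 1, 2 and 3, where the library totals were 3634436, 3198644 and 3061636 against 1964045, 1704504 and 1936218. Every hypoxia library was deeper than every control library, so depth and group cannot be told apart. No intermediate peak had 0 counts in any library, and the lowest count was 4. The median coefficient of variation between libraries of a group was 17.7% in hypoxia and 23.2% in control. The spread of the counts within groups was 2.35 times what independent single reads would give (chi-square per degree of freedom; 2.37 in hypoxia and 2.32 in control), close to the 2.33 of all tested peaks and below the 3.62 of the strongest 1%. Even counts made up 54.6% to 57.6% of intermediate peaks in hypoxia and 60.4% to 70.1% in control, against 50% for reads counted singly. The groups did not overlap in this either. Over all peaks of the table, with a count of 0 taken as even, the shares were 63.8% to 66.4% in hypoxia and 70.5% to 82.0% in control. The excess and its group difference were thus seen in the whole table too.

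Signal within the class was skewed toward its lower limit. Its quartiles were 13.2 and 18.7 CPM, with a median of 15.1, and 2575 lay under 15 CPM, 1690 from 15 to 20 CPM and 1014 at 20 CPM or more. The weakest peaks kept had 12.00005, 12.00078 and 12.00285 CPM and the strongest left out below them 11.99998, 11.99933 and 11.99820. At the upper limit the highest kept had 27.53620, 27.53320 and 27.50772 CPM, and the next above them 27.54876, 27.59062 and 27.60223. In single libraries an intermediate peak ranged from 2.04 CPM in control 1 to 66.1 CPM in control 3. Across the 5279 peaks, log2 CPM correlated at Pearson r = 0.455 to 0.509 between hypoxia libraries, 0.296 to 0.410 between control libraries and 0.310 to 0.461 between groups. In the 1666 strongest peaks the same values were 0.964 to 0.970, 0.924 to 0.945 and 0.942 to 0.953. These values share the libraries and their depth, and the narrow range of signal in the intermediate class limits r there.

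Each peak was tested for a difference between hypoxia and control in a fit over the 118069 peaks of the table that passed a filter on low counts, which all 5279 intermediate peaks did. By edgeR's quasi-likelihood test, 0 intermediate peaks had a Benjamini-Hochberg adjusted p under 0.05, against 0.000847% of all tested peaks (1 peak). The smallest adjusted p among intermediate peaks was 0.119, and 3 had one under 0.25. DESeq2 also called 0 of them, and of all tested peaks (0.00%). One intermediate peak was called by limma-voom (0.0229% of all tested peaks) and 1 by edgeR on counts halved to pairs (0.00423%), both lower in hypoxia. With at least 50 counts required in 3 libraries 1 of the 1629 intermediate peaks left was called (0.0607% of the 3296 peaks tested), through a filter that peaks high in hypoxia meet without the control libraries, and 11.8% had an unadjusted p under 0.05, against 10.9%. At an unadjusted p under 0.05 there were 421 intermediate peaks (7.97%) against 5.61% of all tested peaks, with 237 (4.49%) higher and 184 (3.49%) lower in hypoxia, against 3.10% and 2.51%. Precision differs between classes, with median standard errors of the fitted log2 change of 0.30 in intermediate peaks and 0.51 in all tested peaks. In the 6947 peaks just below the class, from 9 to 12 CPM, the share was 8.09%, and in the strongest 1% it was 12.1%.

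The 95% range around a typical intermediate peak's fold change was 1.49-fold to either side, against 2.00-fold for all tested peaks. At the adjusted threshold even the intermediate peak with the largest fitted change, 2.98-fold higher in hypoxia (A_36226), did not pass. Fitted log2 fold changes ran from -1.51 to 1.58. A fitted change of over 2-fold was seen in 28 intermediate peaks (0.530%), against 6.32% of all tested peaks, and one of over 1.5-fold in 399 (7.56%), against 25.6%. The groups did not overlap in 687 intermediate peaks (13.0%), with 359 (6.80%) higher under hypoxia and 328 (6.21%) lower, against 11.6%, 6.01% and 5.59% of all tested peaks. Median log2 changes were 0.56 in the 359 and -0.49 in the 328. Among these separated peaks 18 were over 2-fold higher and 6 over 2-fold lower. No share over all tested peaks is given beside that split, so it is no result about the class. Peaks without overlap made up 13.5% of those from 9 to 12 CPM and 15.9% of the strongest 1%. The 13.0% of the intermediate peaks was thus not above these neighbouring classes.

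**Figure D2:**
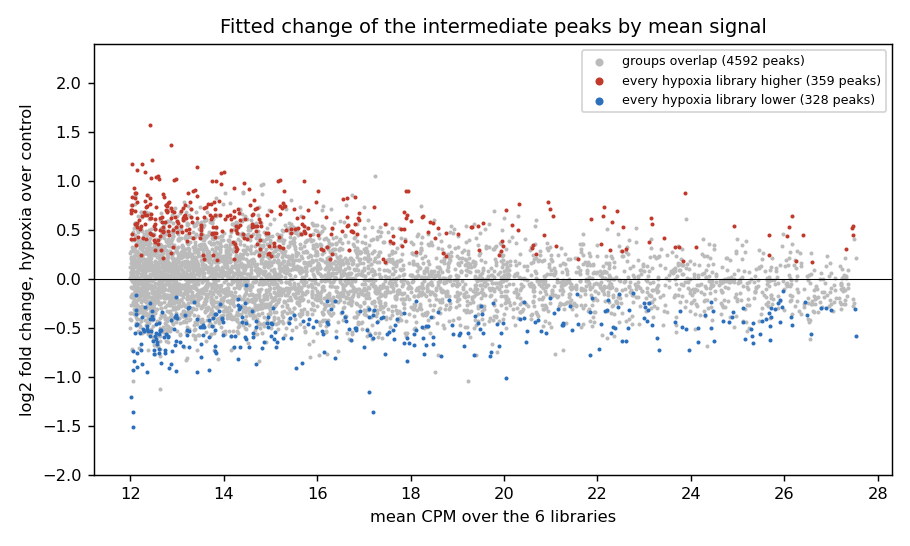
Each point is 1 of the 5279 intermediate peaks, with its mean CPM over the 6 libraries (horizontal axis) and its fitted log2 fold change, hypoxia over control (vertical axis). Coloured peaks have no overlap between the groups (359 higher, 328 lower in hypoxia), and the scatter narrows from the weak to the strong end of the class.

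The balance of higher and lower peaks was not a stable property of the class. The median log2 fold change of the 5279 peaks was -0.0045, beside 0.0011 for all tested peaks, and 50.4% were below 0, beside 49.9%. The rule averages CPM with equal weight per library, which gives the noisier control counts as much say as the deeper hypoxia counts. Membership was also taken from counts pooled over the 6 libraries, which gives the deeper hypoxia libraries more weight. That kept 5096 of the 5279 peaks in a set of 5454, and the median was 0.03. At an unadjusted p under 0.05, 315 peaks were higher and 154 lower (8.60% in all, against 5.61% of all tested peaks). Peaks high in hypoxia meet the pooled cut more easily, so the shift toward higher peaks is no support for a change. Without control 2 the split turned the other way, with 240 higher and 304 lower (10.3% in all, against 6.65% of all peaks tested in that fit), and 6 intermediate peaks had an adjusted p under 0.05 (1 higher and 5 lower, edgeR), against 0.0165% of all peaks tested in that fit. Without hypoxia 3 there were 317 higher and 153 lower (8.90% in all, against 5.60%), and 0 intermediate peaks were called, against 0.00887% of all peaks tested in that fit.

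The 4 peaks described next had the smallest unadjusted p among intermediate peaks with separated groups, the leading pair in each direction. Separation was thus a condition of the choice. Each had a mean under 12 CPM in the group where it was lower. Those means were 9.61 CPM (A_55432), 6.26 CPM (A_138113), 6.22 CPM (A_36226) and 7.27 CPM (A_153805). Each therefore meets the class cut only through the group where it is high, so its membership is no support for a change. The identifiers are labels that name no gene. Values are CPM with totals scaled by the trimmed mean of M values (TMM), a correction for differences in composition between libraries.

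Peak A_55432 was lower in hypoxia and had the smallest p of the class. It held 11.8, 8.15 and 8.83 CPM in hypoxia 1, 2 and 3 and 23.1, 16.0 and 35.1 CPM in control 1, 2 and 3. The control libraries spread widely, with control 3 far above control 2. That the lowest of them is above the highest hypoxia library was a condition of the choice. The group means were 9.61 ± 1.96 CPM under hypoxia and 24.7 ± 9.64 CPM in control (SD, n = 3 each), with a log2 fold change of -1.36 (SE 0.29; edgeR adjusted p = 0.119). It passed with limma-voom, with counts halved and without control 2, and its adjusted p over all settings ran from 0.0106 to 0.589.

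Peak A_138113, at 12.07 mean CPM near the lower limit of the class, was also lower. It held 6.61, 6.27 and 5.89 CPM in hypoxia 1, 2 and 3 and 19.6, 10.7 and 23.2 CPM in control 1, 2 and 3. The hypoxia libraries lay close together, while control 2 was well below the other control libraries. The means were 6.26 ± 0.36 and 17.8 ± 6.46 CPM, with a log2 fold change of -1.51 (SE 0.34; edgeR adjusted p = 0.166). Without control 2 it passed, and its adjusted p over all settings ran from 0.0122 to 0.518.

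Peak A_36226 was higher in hypoxia with tight replicates in both groups. It held 20.4, 17.9 and 17.7 CPM in hypoxia 1, 2 and 3 and 5.53, 5.92 and 7.22 CPM in control 1, 2 and 3, from 54 to 74 counts and 10 to 14 counts. The gap between the lowest hypoxia library and the highest control library was wide, but the lack of overlap was a condition of the choice. The means were 18.6 ± 1.51 and 6.22 ± 0.88 CPM, with a log2 fold change of 1.58 (SE 0.34; edgeR adjusted p = 0.137). It passed (adjusted p = 0.0039, edgeR) with at least 50 counts required in 3 libraries, a filter it meets only through the hypoxia libraries, where it is high, so that pass is no support. Its adjusted p over the other settings ran from 0.0542 to 0.395.

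Peak A_153805 was higher in hypoxia and less even. It held 22.6, 16.6 and 16.3 CPM in hypoxia 1, 2 and 3 and 2.01, 9.47 and 10.3 CPM in control 1, 2 and 3. Control 1, with 4 counts, stood far below the other control libraries and widened the gap. The means were 18.5 ± 3.52 and 7.27 ± 4.57 CPM, with a log2 fold change of 1.37 (SE 0.35; edgeR adjusted p = 0.306). It passed in none of 17 other settings, and its log2 fold change over them ran from 0.91 to 1.75. The nearest peak of the strongest 1% was 97 numbers away from A_153805, and 454 to 737 numbers away from the other 3.

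**Figure D3:**
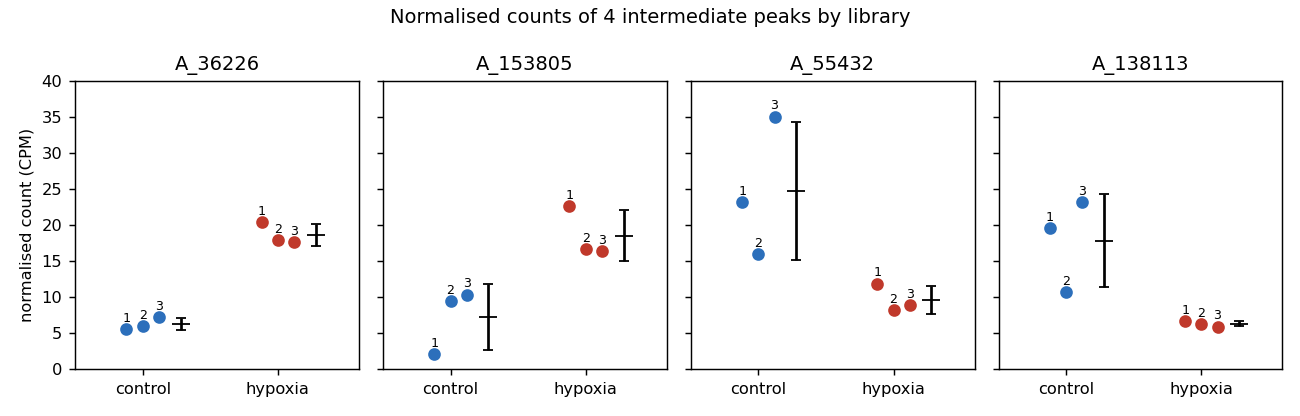
CPM with TMM-scaled totals (vertical axis) of the 4 named intermediate peaks, with each library as a numbered point and the group mean ± SD beside it (3 libraries a group). In A_36226 the hypoxia libraries lie at 17.7 to 20.4 CPM and the control libraries at 5.53 to 7.22, while the control libraries of A_55432 spread from 16.0 to 35.1.

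Intermediate peaks were not spread evenly over the numbering, which is the only position the table gives and stands for neighbourhood in the genome only if it follows the genome. Of the 5279 peaks, 2396 (45.4%) had another intermediate peak as an immediate neighbour, whereas 5.20% of all peaks had one. The longest unbroken run held 13. Per 10000 numbers there were 131 to 656 intermediate peaks, with a median of 295. They also stood close to the strongest peaks: 643 were immediately beside a peak of the strongest 1% and 1923 (36.4%) lay within 10 numbers of one, against 3.14% of the peaks under 12 CPM. The median distance was 41 numbers for intermediate peaks and 290 for the peaks under 12 CPM. Both sets are defined by signal, so this describes where signal is concentrated.

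The direction of the fitted change moved with this distance. For the 643 intermediate peaks immediately beside a strongest-1% peak the median log2 fold change was -0.09, with 65.8% below 0. At 2 to 10 numbers (1280 peaks) the median was -0.06, at 11 to 100 numbers (1211 peaks) -0.04, and at over 100 numbers (2145 peaks) 0.10, with 38.9% below 0. The strongest 1% itself had a median of -0.09 with 68.4% below 0. Peaks that stand among the strongest were therefore slightly lower in hypoxia by the middle of their distribution, and peaks that stand apart slightly higher, by amounts far below what a single peak could show. At an unadjusted p under 0.05, the 1923 peaks within 10 numbers had 37 higher (1.92%) and 83 lower (4.32%), and the 3356 farther away had 200 higher (5.96%) and 101 lower (3.01%), beside 3.10% and 2.51% of all tested peaks.

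The fitted change also moved with signal strength. Median log2 fold changes were 0.05 in peaks of 12 to 15 CPM, -0.01 at 15 to 20 CPM and -0.07 at 20 CPM or more. Within each of these bands the peaks within 10 numbers of a strongest-1% peak had the lower median, at -0.05 against 0.07, -0.07 against 0.04, and -0.08 against -0.05. With membership from pooled counts the medians by distance were -0.09, -0.05, 0.01 and 0.15. Pooled membership admits peaks high in the deeper hypoxia libraries more easily, so these medians are no independent repeat of the pattern.

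By library, however, the groups overlapped. The counts within 10 numbers of a strongest-1% peak were 64.0%, 65.1% and 72.0% of those farther away in hypoxia 1, 2 and 3, and 76.8%, 68.2% and 71.4% in control 1, 2 and 3. Hypoxia 1 and 2 were the lowest and control 1 the highest, but hypoxia 3 lay above control 2 and control 3. The median of the 1923 near peaks shrank from -0.07 to -0.02 without control 1 and became -0.13 without control 2. With at least 50 counts required in 3 libraries, which peaks high in the deeper hypoxia libraries meet more easily, the median was -0.0024 in the 952 near peaks left and 0.12 in the 677 farther ones. The median change of the 3356 farther peaks was 0.05, became 0.01 without control 2 and 0.09 without hypoxia 3. No test was made of this pattern, which was described after results of these libraries were known.

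**Figure D4:**
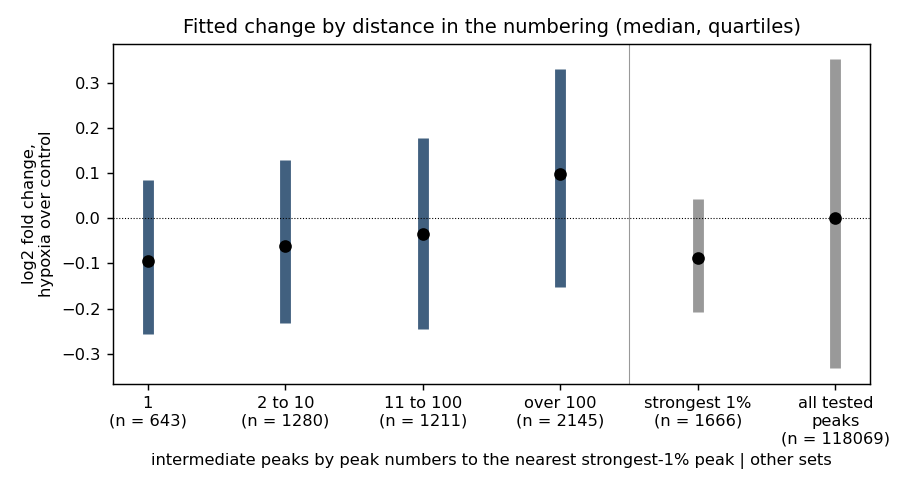
Median (point) and quartiles (bar) of the fitted log2 fold change, hypoxia over control (vertical axis), for intermediate peaks by their distance in peak numbers to the nearest strongest-1% peak, with the strongest 1% and all tested peaks at the right. The medians of the intermediate peaks go from -0.09 beside a strongest peak to 0.10 at over 100 numbers, and the bars overlap.

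Set against the other classes within each library, the intermediate class gave no difference that stood out from the spread. The log2 ratio of intermediate to strongest-1% counts was -0.57, -0.59 and -0.68 in hypoxia 1, 2 and 3 and -0.69, -0.64 and -0.71 in control 1, 2 and 3. Hypoxia 1 and 2 were higher than every control library, and hypoxia 3 lay among them. The difference was 0.07 (two-sided exact permutation p = 0.2, adjusted 0.6 over 3 comparisons). The log2 ratio of intermediate counts to the counts of peaks under 12 CPM had a mean of -3.17 ± 0.03 under hypoxia against -3.15 ± 0.06 in control (SD over 3 libraries; exact two-sided permutation test, p = 0.7, adjusted 0.9).

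Counts were also summed over blocks of 100 consecutive peak numbers, to see whether intermediate peaks of a neighbourhood shifted together at a size that single peaks cannot show. Sums were made separately for intermediate, strongest and other peaks and tested in 1 fit. Intermediate peaks were absent from 489 of the 1697 blocks, and 235 blocks held at least 5 of them, with 3482 of the 5279 peaks. By edgeR 0 of these 235 sums had an adjusted p under 0.05, as did 0.00% of the 3166 sums of all classes, and the smallest was 0.255. Neither DESeq2 nor limma-voom called any of the 235 (0 each), where DESeq2 called 4 of all 3166 sums (0.126%) and limma-voom 0 (0.00%). At an unadjusted p under 0.05 there were 31 (13.2%), 20 higher and 11 lower, against 9.95% of all sums. The 95% range of a typical block was 1.20-fold to either side, and 206 of the 235 lay within 0.25 of 0 on the log2 scale.

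Blocks dense in intermediate peaks leaned lower in hypoxia and sparse ones higher. Of the 64 blocks with 20 or more intermediate peaks, 59 had a fitted log2 fold change below 0, with a median of -0.09. Of the 124 blocks with 5 to 9, 76 were above 0, with a median of 0.08. The median over sums of all classes was 0.02. Single peaks of the strongest 1% leaned lower too (median -0.09, 68.4% below 0), as did intermediate peaks within 10 numbers of them (median -0.07). Whether density differs in this from distance and signal strength was not tested. The dense blocks were below 0 in 50 to 61 of 64 cases when 1 library was left out. At an unadjusted p under 0.05 there were 9 dense blocks (2 higher, 7 lower) with all libraries. No share by direction over sums of all classes is given beside that split. Without control 2 there were 28 (all lower), and without control 1 there were 3 (all higher). Over all 235 blocks the counts were 31 with all libraries, 63 without control 2 and 14 without control 1. The share over sums of all classes, 9.95% with all libraries, is not given here for the other fits. The densest block, from number 159301 to 159400 with 55 intermediate peaks, summed to 941 ± 22.1 CPM under hypoxia, against 1018 ± 47.4 CPM for control (SD, n = 3 each), with a log2 fold change of -0.11 (SE 0.07; edgeR adjusted p = 0.565).

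The block with the smallest p, from number 116901 to 117000, was higher in hypoxia. Its 5 intermediate peaks summed to 99.95, 83.1 and 74.6 CPM in hypoxia 1, 2 and 3 and 55.3, 48.5 and 62.4 CPM in control 1, 2 and 3. The groups did not overlap, and the log2 fold change was 0.63 (SE 0.17; edgeR adjusted p = 0.255), while the 90 weaker peaks of that block had 0.02 (SE 0.07). The next higher block, from 77801 to 77900 with 10 intermediate peaks, had 175 ± 26.2 CPM under hypoxia, against 132 ± 7.37 CPM for control (SD, n = 3 each), a log2 fold change of 0.40 (SE 0.13; edgeR adjusted p = 0.320).

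On the lower side the smallest p values came from blocks that adjoin in the numbering, 101701 to 101800 and 101801 to 101900. The 14 intermediate peaks of the first summed to 195, 199 and 196 CPM in hypoxia 1, 2 and 3 and 273, 217 and 233 CPM in control 1, 2 and 3. The 13 of the second summed to 179, 174 and 169 CPM in hypoxia 1, 2 and 3 and 225, 209 and 210 CPM in control 1, 2 and 3. In both, every hypoxia library was below every control library, and neither block holds a peak of the strongest 1%. Both had a log2 fold change of -0.30 (SE 0.11 each; edgeR adjusted p = 0.356 each), against -0.10 (SE 0.07) and -0.06 (SE 0.07) for the weaker peaks of the same blocks. Of the 1632 pairs of adjoining intermediate peaks in the whole table, 891 (54.6%) had fitted changes of the same sign.

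**Figure D5:**
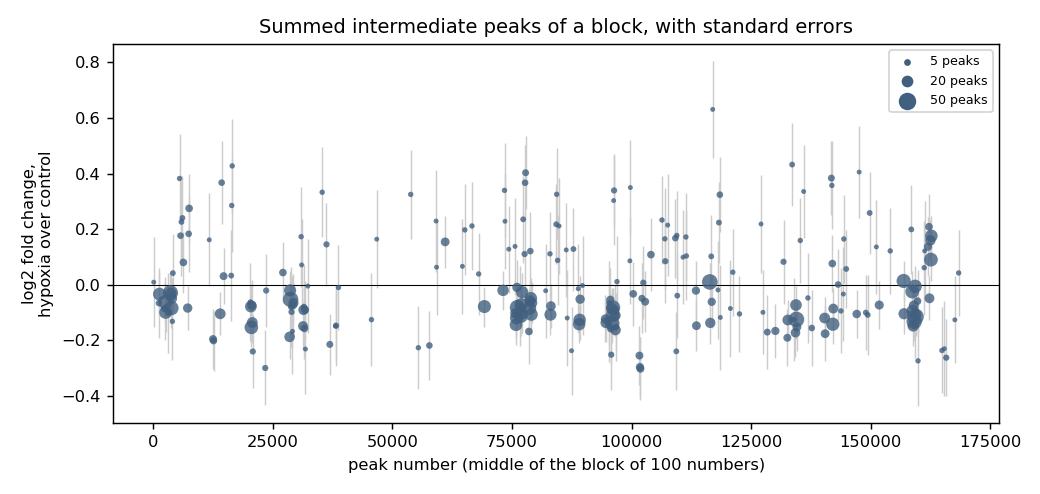
Fitted log2 fold change, hypoxia over control (vertical axis, bars are ± 1 standard error), of the summed intermediate peaks in each of the 235 blocks of 100 peak numbers with at least 5 of them, against peak number (horizontal axis). Point area follows the number of intermediate peaks, and 59 of the 64 blocks with 20 or more lie below 0.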

How the data were processed

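Per the labels' protocols, each ATAC-seq library came from about 50000 cells, 11 PCR cycles and single-end sequencing (50 bases). The libraries were deposited as 1 table of raw counts per peak. Bowtie2, MACS2, deepTools, DESeq2 and build rn6 were used, per the submitters' processing notes, with no roles or versions. Not given in the sources used here are the counting tool, duplicate removal, transposase shift and pooling for peak calling. Duplicates and counts per fragment cannot be separated in a count table, so intervals and tests reach no further than counting error and library spread.

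From the deposited counts, membership used plain CPM. The test was edgeR 4.0.16 in R 4.3.3 on the whole table (TMM factors 0.991 to 1.01, minimum count 10, minimum total 15, robust two-sided quasi-likelihood F test, adjusted over 118069 peaks), and was tested on simulated data. Standard errors came from the fold change and its statistic. A pseudocount of 0.5 CPM was added for correlations. DESeq2 1.42.0 and limma 3.58.1 were alternatives, as were other scalings, filters, cuts, a replicate block, thinning and left-out libraries. Named peaks and blocks were the 2 with the smallest p in each direction, for peaks among those with separated groups. The members and lists were chosen with earlier results of these data known. The mean CPM over both groups chose the members, so the test between groups uses the same counts but not the same contrast.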

Additional observations from a re-analysis of the deposited data

How the results depend on the processing

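Membership from pooled counts and the medians by distance were added after seeing the data. Against 0 called intermediate peaks, 1 was called with at least 50 counts in 3 libraries (A_36226, which meets that filter through its hypoxia libraries alone), 1 with counts halved to pairs (lower) and 1 with limma-voom (lower). Leaving out 1 library gave 0 to 6. At an unadjusted p under 0.05 the main fit had 421 peaks (7.97%). With at least 50 counts in 3 libraries there were 192 (141 higher, 51 lower, 11.8% against 10.9% of all peaks in that fit). Membership from 10 CPM gave 715 of 8980 peaks (444 higher, 271 lower, 7.96%). From 15 CPM it gave 209 of 2704 (95 higher, 114 lower, 7.73%), both against 5.61% of all tested peaks. The class differs in size between these settings, so the counts cannot be compared without the shares. The median log2 fold change was 0.0313 with at least 50 counts and 0.0323 with pooled membership, which both favour peaks high in hypoxia. From 15 CPM it was -0.0355. It ran from -0.0519 to 0.0235 when 1 library was left out. The difference in share of counts was 0.0994 percentage points from 10 CPM and ran from -0.204 to 0.0515 when 1 library was left out. The log2 ratio to peaks under 12 CPM differed by -0.02, and by -0.0596 to 0.000286 when 1 library was left out. Block calls were 0 in every other setting run, and 0 to 1 when 1 library was left out (1 without control 2). The cause of these changes was not tested. None of the 4 named peaks changed sign in a setting that tested it, but they were chosen in these same libraries.

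The labels do not say that equal replicate numbers mark a shared animal or batch, so the numbers were not taken as pairs. Deviations from the group mean across intermediate peaks correlated at -0.06, 0.04 and 0.03 between hypoxia and control libraries of the same number. Libraries of different numbers gave -0.125 to 0.103. With 3 libraries a group these values cannot decide on pairing. Adding the replicate number as a block left 0 intermediate peaks and 0 sums over peak numbers called by edgeR. Under an unadjusted p of 0.05 there were 388 intermediate peaks (7.35%, against 5.09% of all peaks tested in that fit). Where loess offsets by mean signal were added too, 0 intermediate peaks were called and 393 were under 0.05 unadjusted (7.44%, against 4.91%). The 95% range of a typical intermediate peak was 1.49-fold before adjustment, from counting error and library spread together.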
